A study of Mus musculus with 6 samples.

Results

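Bone marrow holds few cells that present antigen on MHC class II among many progenitors that do not. The RNA of 7 genes of this pathway was measured in single bone marrow cells of mice with and without a mammary tumor: Cd74, H2-Aa, H2-Ab1, H2-Eb1, H2-DMa, H2-DMb1 and Ciita. The genes were chosen by symbol, and all 7 were found among the 32285 genes of the tables. The cells were bone marrow cells of BALB/c mice enriched for c-Kit, the receptor that marks stem and progenitor cells, on beads, and were profiled with droplet single-cell RNA-seq that counts RNA molecules by unique molecular identifiers (UMIs). There were 3 pools, and each pool joined 1 mouse of each of 3 groups, all harvested at 10 weeks of age and told apart by a hashtag antibody. The first group was non-tumor bearing (NTB, hashtag B0301) and received no treatment. The second carried 4T1 mammary tumors and received daily intraperitoneal DPBS vehicle for 2 weeks (Veh, B0302), and the third carried 4T1 tumors and received the DHODH inhibitor brequinar at 10 mg/kg intraperitoneally each day for 2 weeks (BRQ, B0303). No NTB group received BRQ, so an effect of BRQ outside tumor bearing could not be measured. The bead enrichment limits the cells as a model of whole marrow, since mature B cells, dendritic cells and macrophages are there only as far as they stayed with the enriched fraction.

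MHC class II molecules carry peptides from endosomes to the cell surface, where CD4+ T cells read them. In BALB/c mice they are I-A, a pair of the alpha chain H2-Aa and the beta chain H2-Ab1, and I-E, whose beta chain is H2-Eb1. Cd74, the invariant chain, binds new class II molecules, keeps their groove closed and escorts them to endosomes; it is also a surface receptor for the cytokine Mif. H2-DMa and H2-DMb1 form H2-DM, which removes the last fragment of the invariant chain and edits the peptides. Ciita is the coactivator that turns on the class II genes, Cd74 and H2-DM together by joining factors bound at the X and Y boxes of their promoters. Dendritic cells, macrophages and B cells are the professional class II presenting cells, and plasma cells are known to shut Ciita off as they mature.

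The 3 pools held 13750, 11441 and 14297 barcodes, of which 11175, 9593 and 11994 passed the filters. Their median depth lay between 7445 and 7996.5 gene UMIs per barcode. A single hashtag was called for 15966 barcodes (48.7% of those kept), from 382 to 2780 per mouse, and pools shared 38 to 48 barcode sequences, with no barcode used as a link between pools. Values by cell class below used all kept barcodes of a pool, and values by mouse used only barcodes with 1 hashtag. The 4 class II chains and the other members were left out when cells were clustered, so that a class was not defined by them. Classes were named from marker genes and are called "like" the cell type because no annotation by cell was used. Stem-like cells (1904) had Hlf, Meis1 and Cd34 among their leading genes, monocyte-like cells (2626) had Ms4a6c, F13a1 and Ccr2, and granulocyte-monocyte progenitors (GMPs) were the 7021 cells above the limit of Ms4a3, a GMP marker. B-like cells numbered 253, plasma-like 145, macrophage-like 327 and dendritic-like 87. Another 92 cells shared a cluster with 79 of the dendritic-like cells and 24 of the B-like cells, carried markers of both dendritic cells and monocytes, and stayed unnamed. That whole cluster of 195 cells is called the dendritic/monocyte cluster.

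In the GENCODE annotation of GRCm38, 5 of the 7 genes stand close together on chromosome 17, in the class II region of the MHC. H2-DMa (ENSMUSG00000037649) lies at chr17:34119541-34139101 on the plus strand, H2-DMb1 (ENSMUSG00000079547) at chr17:34153072-34160230 on the plus strand and H2-Ab1 (ENSMUSG00000073421) at chr17:34257689-34269419 on the plus strand. H2-Aa (ENSMUSG00000036594) lies at chr17:34282744-34287823 on the minus strand and H2-Eb1 (ENSMUSG00000060586) at chr17:34305867-34316674 on the plus strand. Ciita (ENSMUSG00000022504) lies at chr16:10480059-10528418 on the plus strand. Cd74 (ENSMUSG00000024610) lies on another chromosome. The reads were counted on mm10, which is C57BL/6 sequence of the H2-b haplotype, whereas BALB/c mice are H2-d. Reads of the polymorphic class II genes may therefore have been lost, in all 3 groups alike; the size of this loss was not tested. For this reason, and because reads were taken from the end of each transcript, levels are compared between cells and not between genes.

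Promoter sequence in RefSeq (GRCm38.p6) was found for 4 of the 7 genes with 5 starts; H2-Ab1, Ciita and Cd74 were not matched. The 250 bases before the start are shown because these genes are known to be switched together through boxes that lie there. Capitals mark 3 motifs searched on both strands: CCAAT, the core of the Y box (ATTGG on the other strand), AGCAAC, the core of the X1 box, and TGACGTCA, the cAMP response element that X2 boxes resemble. The motifs do not overlap one another in these windows.
H2-Aa: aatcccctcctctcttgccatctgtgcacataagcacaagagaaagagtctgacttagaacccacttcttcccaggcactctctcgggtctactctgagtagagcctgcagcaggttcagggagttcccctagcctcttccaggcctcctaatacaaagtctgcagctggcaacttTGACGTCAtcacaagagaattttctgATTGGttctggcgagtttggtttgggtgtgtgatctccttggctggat
H2-Eb1: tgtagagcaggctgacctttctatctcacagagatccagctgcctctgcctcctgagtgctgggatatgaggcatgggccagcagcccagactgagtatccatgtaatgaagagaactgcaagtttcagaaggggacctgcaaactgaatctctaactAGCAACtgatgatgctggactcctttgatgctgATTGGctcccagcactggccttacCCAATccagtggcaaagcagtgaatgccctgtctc
H2-DMb1: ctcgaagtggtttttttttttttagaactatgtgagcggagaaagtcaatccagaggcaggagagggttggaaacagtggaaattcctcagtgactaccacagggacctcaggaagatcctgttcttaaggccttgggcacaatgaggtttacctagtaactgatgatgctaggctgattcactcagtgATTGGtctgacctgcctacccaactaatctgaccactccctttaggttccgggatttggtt
H2-DMa: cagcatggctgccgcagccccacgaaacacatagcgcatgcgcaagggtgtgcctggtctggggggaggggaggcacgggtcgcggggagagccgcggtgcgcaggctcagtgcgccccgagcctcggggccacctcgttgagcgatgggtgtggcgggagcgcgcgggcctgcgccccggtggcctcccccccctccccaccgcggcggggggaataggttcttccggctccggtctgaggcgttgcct

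The H2-Aa window (chr17:34287824-34288073, minus strand) held TGACGTCA starting 74 bases before the start and the reverse of CCAAT at 48. The H2-Eb1 window (chr17:34305617-34305866, plus strand) held AGCAAC at 92 bases, the reverse of CCAAT at 59 and CCAAT at 35. The H2-DMb1 window (chr17:34152941-34153190, plus strand) held the reverse of CCAAT at 61 bases. The H2-DMa window shown (chr17:34122582-34122831, plus strand) held none of the 3, and the other H2-DMa window (chr17:34125268-34125517) held the reverse of CCAAT at 198 bases. Both H2-DMa windows lie inside the gene as GENCODE draws it. Of 32851 promoters of the same length, 33.8% held CCAAT, 12.2% AGCAAC and 1.55% TGACGTCA on either strand. A match is a match of letters in the C57BL/6 reference, and a window without one says nothing of other forms of these boxes.

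In the whole data set Cd74 had 14240 UMIs in 1063 cells, H2-Aa 5566 in 717 cells, H2-Ab1 4718 in 1296 cells and H2-Eb1 2400 in 406 cells. H2-DMa had 13204 UMIs in 7777 cells, H2-DMb1 1234 in 918 cells and Ciita 344 in 188 cells.

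The RNA of Ciita, Cd74 and the class II chains was concentrated in the dendritic/monocyte cluster. This cluster made up 0.595% of cells and held 71.8% of all Ciita UMIs, 75.4% of H2-Aa, 71.0% of H2-Eb1, 60.3% of H2-Ab1 and 52.7% of Cd74. The H2-DM genes were spread differently: the cluster held 4.33% of H2-DMa and 21.3% of H2-DMb1, while monocyte-like cells held 37.8% and 56.7%. GMP-like clusters held another 29.1% of H2-DMa UMIs and stem-like cells 10.5%. Plasma-like cells held 25.4% of Cd74 UMIs and no Ciita UMI.

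**Figure D1:**
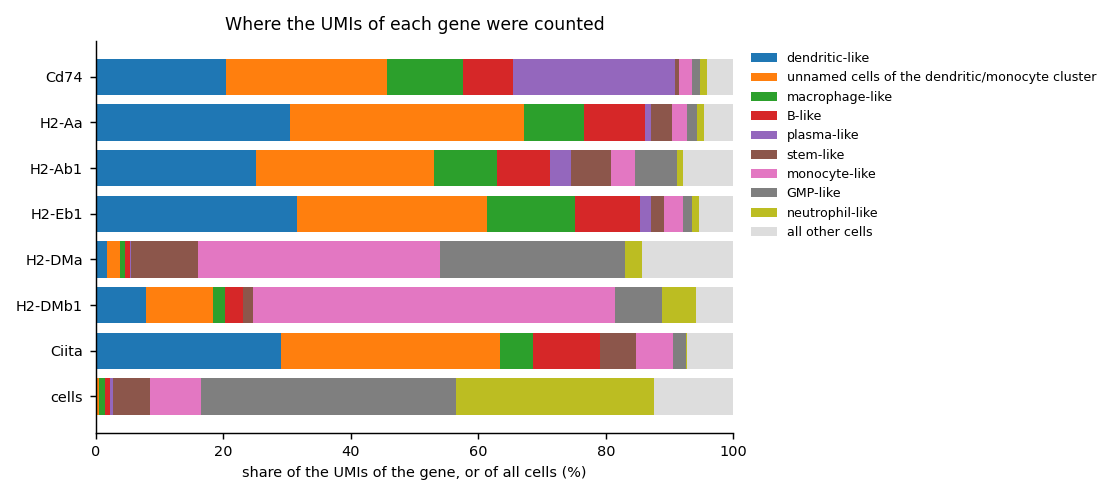
Share of the UMIs of each gene (x axis, %) by the class of the cell in which they were counted, over all kept barcodes; the last bar gives the share of all cells. The dendritic-like cells and the unnamed cells of the dendritic/monocyte cluster carry most H2-Aa, H2-Eb1 and Ciita UMIs, while monocyte-like and GMP-like cells carry most H2-DMa UMIs.

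Among the named classes, dendritic-like cells had the highest level of each of the 7 genes. Levels are CPM, the UMIs of a gene scaled to the same total of UMIs in every class, given as mean ± SD over the 3 pools. Cd74 stood at 7429, 8171 and 6652 CPM in the dendritic-like cells of the pools (7418 ± 760, n = 3), H2-Aa at 4541, 5081 and 3147 (4256 ± 998, n = 3) and Ciita at 214, 302 and 242 (253 ± 45.1, n = 3). H2-Ab1 stood there at 2984 ± 599, H2-Eb1 at 1832 ± 815, H2-DMa at 605 ± 76.1 and H2-DMb1 at 246 ± 55.1 CPM (n = 3 each). Of the 87 cells, 79 lay in a sub-cluster that scored highest for conventional dendritic markers and next for monocyte markers. Naaa, Irf8 and Itgb7 were among its 10 leading genes, and so was Ccr2, a monocyte marker. In the 8 cells with plasmacytoid markers Cd74 gave 16 UMIs, all in 1 cell. The 92 unnamed cells of the same cluster followed, with Cd74 at 5305 ± 433, H2-Aa at 2995 ± 207, H2-DMa at 404 ± 34.7 and Ciita at 172 ± 48.7 CPM (n = 3 each). The pools of the dendritic-like and the unnamed cells overlapped for H2-Aa and H2-DMb1, and did not for Cd74, H2-Ab1, H2-Eb1, H2-DMa and Ciita. The unnamed cells were themselves mixed. Of them 40 lay in a sub-cluster of 43 cells led by S100a4, Fn1 and Ahnak, with 10000 ± 1346 CPM of Cd74 (n = 3), and 52 in a sub-cluster of 57 cells led by Crip1, Aif1 and Rnase6, with 3528 ± 598 (n = 3), beside 8090 ± 716 in the conventional dendritic sub-cluster.

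Macrophage-like cells came next for the class II chains. Their H2-Aa level was 398 ± 115, H2-Ab1 332 ± 85.9, H2-Eb1 250 ± 73.3 and Cd74 1194 ± 161 CPM (n = 3 each), and these cells were led by complement genes C1qa and C1qc, which mark tissue macrophages. B-like cells stood at 310 ± 108 for H2-Aa, 229 ± 60.1 for H2-Ab1, 140 ± 51.1 for H2-Eb1 and 644 ± 242 CPM for Cd74 (n = 3 each). The pools of macrophage-like and B-like cells overlapped for H2-Aa, H2-Ab1, H2-DMa, H2-DMb1 and Ciita, so these 2 classes were not set apart by their spread there; for Cd74 and H2-Eb1 the macrophage-like pools were all higher. T/NK-like cells (48 cells) had 449 ± 272 CPM of Cd74, of which 3 cells held 55.4%.

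Within the B-like class, class II RNA sat in few cells. The sub-cluster of 125 pro-B-like cells, led by Ebf1, Vpreb1 and Igll1, had no Cd74 UMI in any cell, which allows a share of up to 2.40% of cells with one. All 9 cells of the mature B sub-cluster, led by Ms4a1 and Cd79b, had Cd74 UMIs, 107 in all. Of the 1119 Cd74 UMIs of the class, 1007 lay in the 24 B-like cells that had clustered with the dendritic cells. These belong to a sub-cluster of 61 cells with a median of 13686 UMIs, in which Scrublet, which scores barcodes that may hold 2 cells, marked 45.9%, and which carried Crip1, Ahnak and Ccr2 beside the pro-B genes. The remaining B-like sub-cluster had 3 Cd74 UMIs in 58 cells.

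Plasma-like cells, led by immunoglobulin genes and Jchain, had Cd74 without Ciita. Cd74 stood there at 2061, 2381 and 1966 CPM (2136 ± 217, n = 3), below the dendritic-like cells and above the macrophage-like cells in every pool, and 141 of 145 cells had a UMI. H2-Ab1 was at 91.2 ± 14.8, H2-Aa at 31.8 ± 9.70 and H2-Eb1 at 26.9 ± 16.6 CPM (n = 3 each). Ciita and H2-DMb1 had no UMI in 145 cells, which allows a share of up to 2.07% of cells with one. After every cell was thinned to 2000 UMIs, 90.8% of 141 plasma-like cells kept a Cd74 UMI (Wilson 95% interval 84.9 to 94.5), 20.6% an H2-Ab1 UMI and none a Ciita UMI (upper limit 2.65). In the single mice Cd74 in plasma-like cells ranged from 1873 to 3033 CPM, on 3 to 26 cells, and the 3 groups overlapped.

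**Figure D2:**
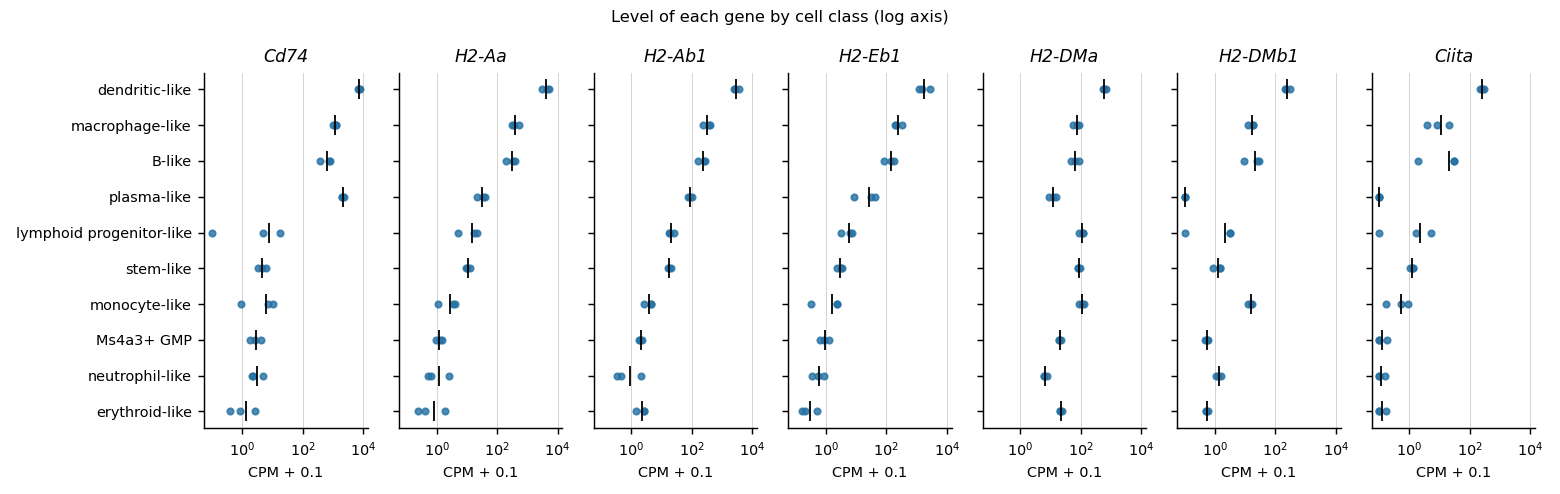
Level of each gene (x axis, CPM plus 0.1, log scale) in 10 cell classes; each point is 1 of 3 pools, and the tick is their mean. Dendritic-like cells are highest for all 7 genes. H2-DMa averages 605 CPM in dendritic-like and 109 CPM in monocyte-like cells, and H2-Aa 4256 and 2.77 CPM.

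Levels in the progenitor classes lay below those in dendritic-like cells for each gene. In stem-like cells H2-Aa stood at 10.3, 9.59 and 12.3 CPM (10.7 ± 1.43, n = 3), H2-Ab1 at 17.9 ± 2.08, H2-Eb1 at 2.88 ± 0.600 and Cd74 at 4.57 ± 1.39. Ciita gave 19 UMIs in 19 of 1904 stem-like cells (1.12 ± 0.180 CPM). H2-DMa in the same cells was at 81.9, 92.7 and 78.2 CPM (84.3 ± 7.55, n = 3). H2-DMa was at 109 ± 18.2 in monocyte-like, 107 ± 17.5 in lymphoid progenitor-like, 20.1 ± 1.82 in Ms4a3+ GMPs and 6.50 ± 0.712 CPM in neutrophil-like cells (n = 3 each). In the order of H2-DMa levels the pools of monocyte-like, lymphoid progenitor-like, stem-like, macrophage-like, T/NK-like and B-like cells overlapped from one to the next, as did those of Ms4a3+ GMPs and erythroid-like cells (21.6 ± 1.55), whereas the neutrophil-like pools lay below all of these. H2-DMb1, the partner chain, was at 15.3 ± 2.36 CPM in monocyte-like cells and at 1.17 ± 0.340 in stem-like and 0.439 ± 0.0569 in Ms4a3+ GMPs (n = 3 each).

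In droplet data, RNA set free by lysed cells gives UMIs in cells that do not make them, so shares of cells with a UMI were set against neutrophil-like and erythroid-like cells, with every cell thinned to 2000 UMIs. The median depth before thinning was 7541 UMIs in stem-like, 13398 in Ms4a3+ GMP, 17027 in monocyte-like, 4084.5 in neutrophil-like and 19192 in erythroid-like cells. An H2-Aa UMI was kept by 3.05% of stem-like cells (2.36 to 3.93; 7.62% unthinned), 0.187% of neutrophil-like (0.112 to 0.314) and 0.106% of erythroid-like cells. For H2-Ab1 the shares were 3.64% (2.88 to 4.59; 13.3% unthinned), 0.147% and 0.528%. Stem-like cells were thus above both background classes for these 2 chains. Their Cd74 share was 0.910% (0.569 to 1.45) beside 0.562% (0.416 to 0.758) in neutrophil-like cells, so that Cd74 in stem-like cells was not set apart from background. These intervals cover counting error only.

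The same comparison set H2-DM apart in monocyte-like cells and not in GMPs. H2-DMa was kept by 19.1% of monocyte-like (17.6 to 20.6; 75.9% unthinned) and 16.2% of stem-like cells (14.6 to 18; 46.0% unthinned), against 1.15% of neutrophil-like (0.932 to 1.42) and 4.06% of erythroid-like cells (3.26 to 5.05). H2-DMb1 was kept by 3.34% of monocyte-like cells (2.72 to 4.10) and 0.160% of neutrophil-like cells. In Ms4a3+ GMPs the H2-DMa share of 3.34% (2.94 to 3.79; 22.7% unthinned) lay above neutrophil-like and not above erythroid-like cells. The GMP shares of Cd74 (0.348%), H2-Ab1 (0.377%) and H2-Aa (0.116%) lay within the range of the 2 background classes, and Ciita had 3 UMIs in 7021 cells. Cd74 in monocyte-like cells had 295 UMIs in 52 of 2626 cells, and 3 of these cells held 59.7% of them.

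Group differences were tested on UMI counts summed by mouse and class, with edgeR's quasi-likelihood test across all genes that passed its filter on low counts and Benjamini-Hochberg adjustment over all of them; a gene was called at an adjusted p under 0.05. Classes with under 10 cells in a mouse left that mouse out. Nothing beyond the pool shows whether mice of a group were housed or handled apart, so the p-values measure the spread between these mice. The comparison of Veh with NTB asks what tumor bearing goes with, where the Veh mice also received injections and the NTB mice did not, that of BRQ with Veh what the drug goes with in tumor bearing mice, and that of BRQ with NTB how far treated mice stood from tumor-free ones.

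In stem-like cells H2-Aa was lower in both tumor bearing groups. The 3 NTB mice had 42.7, 17.0 and 26.1 CPM of H2-Aa (22, 12 and 36 UMIs in 15 of 64, 10 of 88 and 26 of 160 cells). Veh mice 1 and 3 had 5.74 and 6.40 CPM, while Veh mouse 2 had 9 stem-like cells with no H2-Aa UMI and was left out of the fit. The 3 BRQ mice had 8.36, 13.4 and 4.29 CPM. All NTB mice lay above all tumor bearing mice, and Veh and BRQ mice overlapped. H2-Aa fell by 2.17 on the log2 scale in Veh against NTB (SE 0.45, 95% interval -3.08 to -1.26, adjusted p = 0.00536, edgeR) and by 1.73 in BRQ against NTB (SE 0.35, -2.44 to -1.01, adjusted p = 0.00459, edgeR). BRQ against Veh gave 0.44 (-0.60 to 1.49, adjusted p = 1.000, edgeR), an interval that still holds differences in either direction.

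The partner chain H2-Ab1 did not pass the test in stem-like cells. It stood at 40.8, 24.1 and 23.9 CPM in NTB, 21.9 and 19.2 in Veh and 14.1, 22.4 and 11.7 in BRQ mice, so NTB lay above the others by a small margin. Its log2 difference was -0.36 in Veh against NTB (adjusted p = 0.736) and -0.85 in BRQ against NTB (SE 0.28, adjusted p = 0.167, edgeR). H2-DMa overlapped among the groups, at 87.4, 92.1 and 76.0 CPM in NTB, 91.9 and 68.3 in Veh and 75.2, 87.0 and 85.2 in BRQ mice, with log2 differences of 0.04, -0.08 and -0.04 in Veh against NTB, BRQ against Veh and BRQ against NTB. Of the 7 genes 3 passed the low-count filter in stem-like cells, and 1, 0 and 1 of them were called in these comparisons, where 1.17%, 0.0404% and 0.767% of 9911 genes were called. In BRQ against Veh no member had an unadjusted p under 0.05 and DESeq2 called 0.

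**Figure D3:**
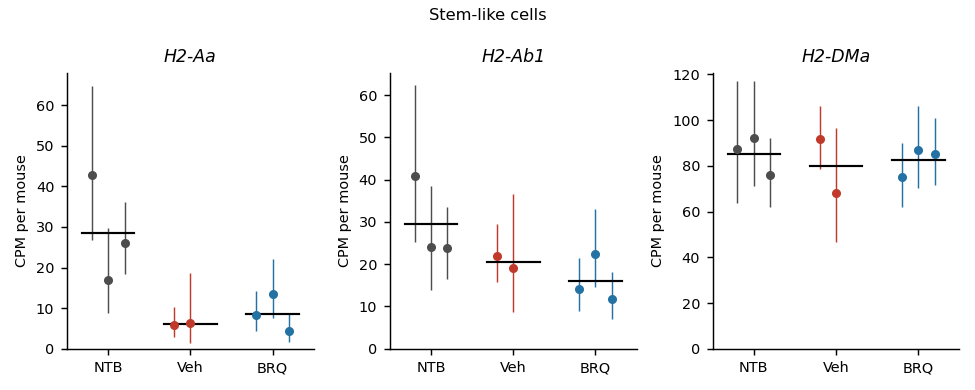
H2-Aa, H2-Ab1 and H2-DMa in stem-like cells (y axis, CPM per mouse); each point is a mouse, thin lines are exact Poisson 95% intervals that cover counting error only, and bars are group means. The 3 NTB mice lie above the Veh and BRQ mice for H2-Aa and overlap them for H2-DMa; Veh mouse 2, with 9 cells, is not drawn.

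The H2-Aa calls in stem-like cells rested on few UMIs and could be lost by leaving out 1 mouse, while the difference stayed negative. Without Veh mouse 1, the 1 Veh mouse left is assumed to vary like the other groups, and the difference from NTB was -2.07 (adjusted p = 0.519, edgeR). Without NTB mouse 1 that of BRQ from NTB was -1.45 (adjusted p = 0.0632, edgeR). DESeq2 gave -2.22 in Veh against NTB, with no adjusted p, and -1.74 (adjusted p = 0.0607) for BRQ against NTB. With the limits of 500 and 7500 read as UMIs per cell, which is nearer to the wording of the methods than genes, H2-Aa gave -1.35 in Veh against NTB (adjusted p = 0.495, edgeR) and -1.45 in BRQ against NTB (adjusted p = 0.196, edgeR). For BRQ against NTB hashtags called by tag ratios gave -1.17 (adjusted p = 0.163, edgeR).

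The make-up of the stem-like class moved with the groups. The summed level of the GMP markers in it was 1265 to 2294 CPM in NTB, 2969 to 3019 in Veh and 2485 to 2985 in BRQ mice, and that of the HSC and multipotent progenitor markers was 2777 to 2848, 3195 to 3254 and 2916 to 3480 CPM. The stem cell markers did not move one way. Ifitm1, an interferon-induced membrane protein among them, rose by 1.30 in Veh against NTB (adjusted p = 1.93e-09, edgeR) and by 1.03 in BRQ against NTB (adjusted p = 1.47e-07, edgeR). Hlf, a transcription factor of stem cells, fell by 0.90 in Veh against NTB (adjusted p = 1.24e-05, edgeR) and by 0.61 in BRQ against NTB (adjusted p = 0.000778, edgeR). Cd48, which is gained as stem cells become multipotent progenitors, rose by 0.76 (adjusted p = 0.00786, edgeR) and stood 0.56 higher (adjusted p = 0.0539, edgeR). The other 8 stem cell markers had no call in either comparison. Erythroid markers were at 301 to 436 CPM in NTB, 210 to 237 in Veh and 197 to 270 in BRQ mice, every NTB mouse above every tumor bearing mouse, and monocyte markers at 85.5 to 86.4, 154 to 158 and 88.7 to 146. Stromal and endothelial markers were at 35.0 to 55.2, 57.6 to 71.5 and 57.9 to 83.4 CPM, every NTB mouse below every tumor bearing mouse. Conventional dendritic markers were at 194 to 235 CPM in NTB, 188 to 193 in Veh and 170 to 255 in BRQ mice. Veh lay below NTB without overlap, by a small margin, and BRQ overlapped NTB. Macrophage markers were at 31.1 to 51.4 CPM in NTB, 19.2 to 63.7 in Veh and 12.2 to 29.6 in BRQ mice, with BRQ below NTB without overlap. Plasmacytoid dendritic markers were at 447 to 491, 399 to 421 and 387 to 478 CPM, with Veh below NTB without overlap.

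Among stem-like cells H2-Aa was uneven. These splits were chosen after the values were seen and are descriptions. Depth moved with some splits, with a median of 10075.5 UMIs in cells with a Cd48 UMI and 6070.5 in those without, and of 11617 and 6180 for Mki67. H2-Aa stood at 5.21 CPM in the 884 cells with a Cd48 UMI (exact Poisson interval 3.88 to 6.85) and at 19.0 in the 1020 without (15.9 to 22.5), while H2-DMa stood at 84.1 and 82.2 CPM. It stood at 12.5 CPM in the 1638 cells with an Hlf UMI (10.8 to 14.5) and 0.855 in the 266 without (0.104 to 3.09), at 19.9 with and 9.53 without Procr, a receptor on stem cells, and at 5.68 with and 16.7 without the proliferation gene Mki67. Of the 10 stem cell markers, H2-Aa stood higher in cells with a UMI of 7, with exact Poisson intervals apart for 4 (Hlf, Procr, Mecom and Mllt3), and lower with 3, with intervals apart for Cd34 alone. It stood at 8.52 CPM with and 39.5 without a Cd34 UMI (median depth 8044 and 4838), at 10.5 and 13.8 for Adgrg1, at 10.1 and 12 for Hoxa9, and at 14.3 and 6.39 for Mecom and 14.9 and 8.24 for Mllt3. These splits pool the cells of all mice and groups, so cells are no replicates and the intervals cover counting error only. The groups also differed in the splits. Cells without an Hlf UMI made up 3.12 to 9.09% of stem-like cells in NTB, 14.5 and 15.7% in Veh and 10.4 to 17.0% in BRQ mice. For Mecom, NTB mouse 1 (40.8 CPM with and 46.6 without) and BRQ mouse 3 (4.01 and 4.74) went the other way, and the other mice did not. For H2-Aa, cells without a Cd48 UMI made up 61.2 to 76.6% of the stem-like cells of NTB, 45.6 and 51.0% of those of Veh and 43.9 to 62.0% of those of BRQ mice. In these cells alone H2-Aa stood at 59.9, 17.8 and 38.5 CPM in NTB, 10.3 and 16.6 in Veh and 11.4, 25.0 and 5.68 in BRQ mice. Its log2 difference there was -1.65 in Veh against NTB (adjusted p = 0.490, edgeR) and -1.50 in BRQ against NTB (adjusted p = 0.241, edgeR), lower on average as in the whole class but past the threshold in neither. The part of the class's make-up in the H2-Aa difference was not tested beyond this.

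In monocyte-like cells the H2-DM genes were highest in NTB mice on average, and neither passed the test. H2-DMa stood at 113, 151 and 124 CPM in NTB, 122, 81.9 and 89.0 in Veh and 101, 127 and 93.0 in BRQ mice, and the groups overlapped. H2-DMb1 stood at 18.8, 15.8 and 25.8 CPM in NTB, 15.2, 8.19 and 10.7 in Veh and 16.7, 21.1 and 12.8 in BRQ mice. All Veh mice lay below all NTB mice for H2-DMb1, and BRQ mice overlapped both. The class also differed in make-up between these groups, with HSC and multipotent progenitor markers at 215 to 319 CPM in NTB, 408 to 612 in Veh and 424 to 635 in BRQ mice. Markers of mature B cells were at 209 to 287, 177 to 207 and 164 to 183 CPM, those of conventional dendritic cells at 88.6 to 94.5, 76.3 to 86.7 and 80.6 to 90.6, and those of macrophages at 20.2 to 45.6, 12.1 to 19.1 and 19.6 to 22. Their part in the H2-DM levels was not tested.

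**Figure D4:**
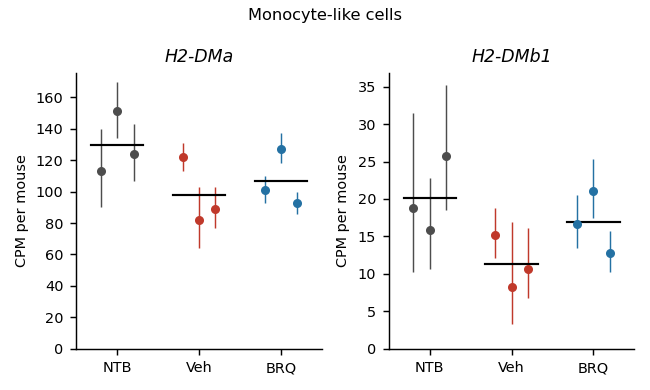
H2-DMa and H2-DMb1 in monocyte-like cells (y axis, CPM per mouse); each point is a mouse, thin lines are exact Poisson 95% intervals that cover counting error only, and bars are group means. The NTB mean is the highest for both genes, and mice of the 3 groups overlap for H2-DMa.

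The log2 difference of H2-DMa was -0.35 in Veh against NTB (SE 0.15, adjusted p = 0.189, edgeR), -0.06 in BRQ against Veh (adjusted p = 0.874, edgeR) and -0.40 in BRQ against NTB (SE 0.14, adjusted p = 0.112, edgeR). With the pool as a replicate block, BRQ against NTB was -0.41 and passed the test (adjusted p = 0.0143, edgeR). Without BRQ mouse 2 it was -0.56 (adjusted p = 0.0128, edgeR), and without Veh mouse 1 the difference of Veh from NTB was -0.63 (adjusted p = 0.0311, edgeR). H2-DMb1 differed by -0.62 in Veh against NTB (SE 0.27, adjusted p = 0.206, edgeR) and by -0.37 in BRQ against NTB (adjusted p = 0.515, edgeR). These 2 genes were the only members that passed the low-count filter here, and 0, 0 and 0 were called in Veh against NTB, BRQ against Veh and BRQ against NTB, where 3.90%, 5.73% and 3.15% of 9517 genes were called. At an unadjusted p under 0.05 there were 2, 0 and 1 members, and DESeq2 called 0 in each, with no adjusted p for H2-DMb1 in Veh against NTB and BRQ against Veh.

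In Ms4a3+ GMPs H2-DMa was higher in BRQ than in Veh mice. NTB mice had 20, 21.9 and 17.9 CPM of H2-DMa, Veh mice 16.1, 15.6 and 14.7 and BRQ mice 23.5, 30.2 and 24.2. Every BRQ mouse lay above every NTB mouse and every NTB mouse above every Veh mouse. The UMIs came from many cells, 198, 199 and 199 cells of the BRQ mice, 202, 22 and 66 of the Veh mice and 18, 33 and 31 of the NTB mice. H2-DMa rose by 0.53 on the log2 scale in BRQ against Veh (SE 0.13, 95% interval 0.26 to 0.80, adjusted p = 0.00860, edgeR). Veh against NTB gave -0.30 (SE 0.19, adjusted p = 0.346, edgeR) and BRQ against NTB 0.23 (adjusted p = 0.500, edgeR). Without BRQ mouse 2 the difference of BRQ from Veh was 0.39 (adjusted p = 0.0504, edgeR), and with all cells of GMP-like clusters in place of the Ms4a3 limit it was 0.37 (adjusted p = 0.0642, edgeR).

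H2-Ab1 and Cd74 were near background in these cells and rested on few of them. H2-Ab1 stood at 8.01, 0.608 and 2.90 CPM in NTB, 0.747, 1.81 and 0.754 in Veh and 3.24, 2.97 and 2.39 in BRQ mice. The 8 H2-Ab1 UMIs of NTB mouse 1 lay in 1 cell, whereas BRQ mice had H2-Ab1 in 18, 18 and 25 cells and Veh mice in 12, 3 and 4. H2-Ab1 rose by 1.54 in BRQ against Veh (SE 0.45, adjusted p = 0.0230, edgeR), and every BRQ mouse lay above every Veh mouse. Some marker lists separated the same way. Those of mature B cells were at 28.3 to 34.5 CPM in Veh and 35.5 to 47.4 in BRQ mice. Those of conventional dendritic cells were at 25.5 to 34.1 and 34.9 to 42. Pro-B and pre-B markers (16.6 to 20.5 and 22.1 to 30.1) and plasmacytoid dendritic markers (99.3 to 101 and 121 to 144) also separated. Macrophage markers (242 to 251 and 172 to 300) and plasma cell markers (7.59 to 13.2 and 7.09 to 8.81) overlapped. The part of these cells in the H2-Ab1 rise was not tested. DESeq2 gave 1.51 (adjusted p = 0.0603), and without Veh mouse 1 it was 1.30 (adjusted p = 0.262, edgeR), without Veh mouse 3 1.47 (adjusted p = 0.0865, edgeR) and without BRQ mouse 1 1.41 (adjusted p = 0.0759, edgeR). With an Ms4a3 limit of 2.5 it was 1.05 (adjusted p = 0.0736, edgeR). In Veh against NTB H2-Ab1 gave -1.88 (SE 0.64, adjusted p = 0.0597, edgeR), and -2.09 with the replicate block, which passed the test (adjusted p = 0.0181, edgeR). It also passed without the low-count filter (-1.83, adjusted p = 0.0246), without NTB mouse 2 (-2.40, adjusted p = 0.0243) and without BRQ mouse 3 (-1.89, adjusted p = 0.0353, all edgeR).

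**Figure D5:**
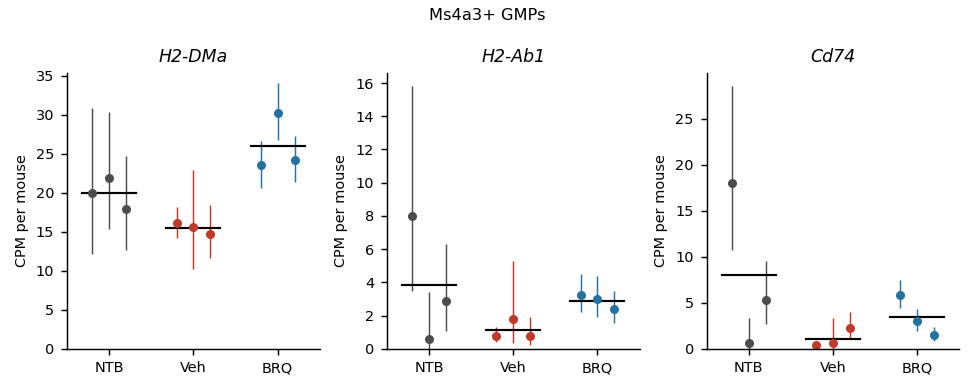
H2-DMa, H2-Ab1 and Cd74 in Ms4a3+ GMPs (y axis, CPM per mouse); each point is a mouse, thin lines are exact Poisson 95% intervals that cover counting error only, and bars are group means. BRQ mice lie above Veh mice for H2-DMa and H2-Ab1, and NTB mouse 1 stands far above the other NTB mice for H2-Ab1 and Cd74.

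Cd74 stood at 18, 0.608 and 5.32 CPM in NTB, 0.373, 0.602 and 2.26 in Veh and 5.82, 2.97 and 1.47 in BRQ mice. Single cells decided these levels: 1 cell held 15 of the 18 Cd74 UMIs of NTB mouse 1, 52 of 61 in BRQ mouse 1 and 24 of 26 in BRQ mouse 2. Cd74 fell by 2.84 in Veh against NTB (SE 0.83, adjusted p = 0.0274, edgeR), but the value was -1.76 without NTB mouse 1 (adjusted p = 0.289), -3.09 without NTB mouse 3 (adjusted p = 0.0812), -1.84 without Veh mouse 1 (adjusted p = 0.221) and -2.79 without Veh mouse 2 (adjusted p = 0.0594, all edgeR). With all cells of GMP-like clusters it was -1.11 (adjusted p = 0.217, edgeR), and DESeq2 gave -2.88 with no adjusted p. Beside Cd74, some marker lists separated the same way in these GMPs, those of macrophages at 377 to 399 CPM in NTB and 242 to 251 in Veh mice and those of mature B cells at 49.2 to 56.6 and 28.3 to 34.5. So did pro-B and pre-B markers (24.7 to 46.2 and 16.6 to 20.5) and neutrophil markers (47539 to 50952 and 34311 to 38073). Conventional dendritic markers (26.1 to 37.1 and 25.5 to 34.1) and plasma cell markers (9.02 to 10.9 and 7.59 to 13.2) overlapped. The part of these cells in the Cd74 difference was not tested. BRQ against Veh gave 1.75 (SE 0.68, adjusted p = 0.0930, edgeR), and 2.07 with the replicate block, which passed (adjusted p = 0.00410, edgeR). Hashtags called by tag ratios gave 2.85 (adjusted p = 0.000923, edgeR), leaving out Veh mouse 3 gave 2.84 (adjusted p = 0.0371, edgeR), and leaving out BRQ mouse 3 gave 2.22 (adjusted p = 0.00439, edgeR). Other settings went against this rise of Cd74 in BRQ against Veh. In all cells of GMP-like clusters its sign turned, at -0.15 (adjusted p = 0.918, edgeR), and DESeq2 did not call it (adjusted p = 0.563, DESeq2). Of the 3 members that passed the low-count filter, 1, 2 and 0 were called in Veh against NTB, BRQ against Veh and BRQ against NTB, where 11.3%, 13.4% and 6.01% of 10331 genes were called. With the block the counts were 2, 3 and 0, where 1693, 2105 and 1217 of all genes were called, against 1169, 1389 and 621 without it. In BRQ against NTB no member had an unadjusted p under 0.05 and DESeq2 called 0.

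The cells above the Ms4a3 limit were not all GMPs by cluster. Of the 7021, 92.9% lay in GMP-like clusters, 74 were monocyte-like and 27 macrophage-like, and 6026 lay within 0.5 above the limit, with 5694 cells within 0.5 below it. Monocyte-like cells made up 0 to 0% of the Ms4a3+ GMPs of NTB, 0 to 0.983% of those of Veh and 1.24 to 1.99% of those of BRQ mice, and macrophage-like cells 0 to 4.55%, 0 to 0.346% and 0.153 to 0.496%. The 11 monocyte markers summed to 177 to 250 CPM in NTB, 94.6 to 122 in Veh and 245 to 284 in BRQ mice, an order like that of H2-DMa. Lymphoid progenitor markers (52.1 to 75.9, 45.1 to 49.3 and 80.4 to 84.4 CPM) and basophil and mast cell markers (123 to 157, 81.8 to 108 and 181 to 199 CPM) followed that order without overlap, and the conventional dendritic markers were at 26.1 to 37.1, 25.5 to 34.1 and 34.9 to 42 CPM. In the Ms4a3+ cells of GMP-like clusters alone, a restriction chosen after the values were seen, H2-DMa still rose by 0.53 in BRQ against Veh (adjusted p = 0.0103, edgeR), and H2-Ab1 and Cd74 no longer passed the low-count filter. The part of the genes of these other classes in the H2-DMa difference was not tested further.

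In B-like cells only BRQ and NTB mice could be compared, since 1 Veh mouse had 10 or more cells. Cd74 stood at 1255, 801 and 1067 CPM in NTB, on 3 of 11, 3 of 20 and 6 of 19 cells, and at 185, 415 and 443 in BRQ mice, on 1 of 17, 3 of 34 and 1 of 26 cells. H2-Aa stood at 390, 361 and 584 CPM in NTB and 78.1, 238 and 263 in BRQ mice. The groups did not overlap for either gene. Cd74 fell by 1.62 (SE 0.24, adjusted p = 2.21e-05, edgeR) and H2-Aa by 1.23 (SE 0.28, adjusted p = 0.0136, edgeR), H2-Ab1 gave -0.96 (adjusted p = 0.128, edgeR), H2-Eb1 -0.74 (adjusted p = 0.450, edgeR) and H2-DMa 0.04 (adjusted p = 0.993, edgeR). Of 5 members tested 2 were called, where 0.746% of 3753 genes were called.

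The make-up of the class differed between the same groups for some marker lists. Pro-B and pre-B markers summed to 5896 to 6905 CPM in NTB and 8103 to 8329 in BRQ mice, lymphoid progenitor markers to 781 to 1393 and 1712 to 2167, and neutrophil markers to 41142 to 79583 and 34756 to 35665. Plasmacytoid dendritic markers (380 to 592 and 644 to 804) and T and NK cell markers (7.22 to 19.1 and 37.6 to 39) also separated. So did HSC and multipotent progenitor markers (178 to 266 and 303 to 471), basophil and mast cell markers (0 to 50.8 and 52.6 to 83.1) and stromal and endothelial markers (31.8 to 38.0 and 45.1 to 116). Markers of mature B cells (1902 to 2756 and 1723 to 2401), macrophages (64.9 to 105 and 82.6 to 205) and conventional dendritic cells (180 to 447 and 321 to 383) overlapped. The part of these in the differences was not tested.

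The B-like differences rested on few cells. With barcodes marked by Scrublet left out, Cd74 gave -1.02 (adjusted p = 0.977, edgeR) and H2-Aa turned to 0.15 (adjusted p = 0.977, edgeR), and with hashtags called by tag ratios Cd74 gave -0.40 (adjusted p = 0.925, edgeR) and H2-Aa -0.14 (adjusted p = 0.978, edgeR). With the limits of 500 and 7500 read as UMIs the calls were lost while the differences were no smaller, at -2.05 for Cd74 (adjusted p = 0.417, edgeR) and -1.48 for H2-Aa (adjusted p = 0.932, edgeR). H2-Aa also lost its call without NTB mouse 3 (-0.99, adjusted p = 0.0748), without Veh mouse 1 (-1.20, adjusted p = 0.117) and without BRQ mouse 1 (-0.92, adjusted p = 0.212, all edgeR). H2-Ab1 passed the test without NTB mouse 2 (-1.14, adjusted p = 0.0260, edgeR) and without BRQ mouse 2 (-1.50, adjusted p = 0.0208, edgeR). In pro-B and pre-B cells only, which leaves out the mature B cells, H2-Aa gave -0.97 (adjusted p = 0.221, edgeR) and 1 of 5 members was called, Cd74.

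Of the 9 cells of the mature B sub-cluster 6 carried 1 hashtag, 1, 2 and 3 of them from the NTB mice, with 4, 35 and 28 Cd74 UMIs, and none was from a Veh or BRQ mouse. H2-Aa had 1, 31 and 2 UMIs in these cells. With the sub-cluster of many doublets left out, a setting chosen after the values were seen, BRQ mice had no Cd74 or H2-Aa UMI, and both genes were still called (Cd74 at -7.73, adjusted p = 2.34e-14, and H2-Aa at -6.93, adjusted p = 0.000755, edgeR). These fitted values depend on the prior count and are no measure of size. Fewer such cells and less RNA per cell cannot be told apart in sums of so few cells.

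The remaining classes had no called member. In macrophage-like cells of BRQ and NTB mice, a class added after its class II RNA was seen, Cd74 stood at 950, 1441 and 1652 CPM in NTB and 1005, 658 and 1602 in BRQ mice, and gave -0.35 (adjusted p = 0.992, edgeR). H2-Aa stood at 430, 797 and 439 CPM in NTB and 264, 225 and 409 in BRQ mice, with no overlap, and gave -0.91 (95% interval -1.54 to -0.28, unadjusted p = 0.00575, adjusted p = 0.513, edgeR). H2-Eb1 gave -0.86 (adjusted p = 0.704, edgeR). None of 5 members tested was called, where 0.130% of 3074 genes were called; 2 members had an unadjusted p under 0.05, and DESeq2 called 0.

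No mouse had 10 dendritic-like cells, so these were not tested, and the dendritic/monocyte cluster was tested with at least 5 cells per mouse. Dendritic-like Cd74 stood at 11750 and 5457 CPM in NTB mice 2 and 3 (6 and 7 cells), 8865 in Veh mouse 1 (9 cells) and 10693, 10780 and 10961 in the BRQ mice (2, 5 and 1 cells). In the dendritic/monocyte cluster Ciita stood at 242 and 128 CPM in NTB mice 2 and 3, 149 in Veh mouse 1 and 124, 228 and 230 in BRQ mice, and Cd74 at 9324 and 3556, 5500, and 4575, 8218 and 6498 CPM. The NTB mice enclosed all other mice for Cd74, and the groups overlapped for Ciita. All 7 members were tested in BRQ against NTB and none was called, where 0.431% of 1856 genes were called; none had an unadjusted p under 0.05, and DESeq2 called 0. The 95% intervals were wide, from -0.89 to 0.71 for Cd74 and -0.87 to 0.99 for Ciita.

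The other genes of the pathway were taken from 7 lists, of which 40 genes were found: other class II chains, promoter factors, regulators of Ciita, endosomal proteases and the reductase Ifi30, ubiquitin ligases of class II, costimulators, and the Cd74 ligand with its co-receptors. In stem-like cells 29 of them were tested, and 1, 0 and 1 were higher and 0, 0 and 0 lower in Veh against NTB, BRQ against Veh and BRQ against NTB. At an unadjusted p under 0.05 there were 3, 2 and 4 of these genes, and DESeq2 called 1, 0 and 0. Over all genes 1.17%, 0.0404% and 0.767% were called. The gene was Mif, the cytokine that binds Cd74, at 0.52 in Veh against NTB (adjusted p = 0.0107, edgeR) and 0.43 in BRQ against NTB (adjusted p = 0.0245, edgeR). The 9 tested regulators of Ciita and the 6 tested promoter factors, among them the RFX and NF-Y subunits, had no call in stem-like cells, with median log2 differences of -0.09 and -0.08 in Veh against NTB, where the median over all genes was -0.01.

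In monocyte-like cells 30 of these genes were tested, and 2 were higher and 1 lower in Veh against NTB and 1 higher and 2 lower in BRQ against Veh, where 3.90% and 5.73% of all genes were called. Irf8, a transcription factor of monocytes and dendritic cells, fell by 0.37 in Veh against NTB (adjusted p = 0.0313, edgeR). Mif rose by 0.39 in Veh against NTB (adjusted p = 0.0152, edgeR) and fell by 0.38 in BRQ against Veh (adjusted p = 0.0114, edgeR). Among the endosomal genes Ctsz rose by 0.38 in Veh against NTB (adjusted p = 0.0278, edgeR). In BRQ against Veh the protease Ctsb rose by 0.40 (adjusted p = 0.0120, edgeR) and Ifi30 fell by 0.37 (adjusted p = 0.0448, edgeR).

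In Ms4a3+ GMPs 28 of these genes were tested, with 4 higher and 4 lower in Veh against NTB, 4 higher and 2 lower in BRQ against Veh and 2 higher in BRQ against NTB, where 11.3%, 13.4% and 6.01% of all genes were called. Of the 4 genes of the Cd74 ligand list, 1 was higher and 2 lower in Veh against NTB, and 2 were higher and 1 lower in BRQ against Veh. These 2 comparisons share the Veh mice, so their values are not independent. Mif rose by 0.75 in Veh against NTB (adjusted p = 1.32e-05, edgeR) and fell by 0.47 in BRQ against Veh (adjusted p = 0.000779, edgeR). Cd44, the receptor that signals with Cd74, fell by 0.65 (adjusted p = 0.00247, edgeR) and rose by 0.93 (adjusted p = 2.74e-06, edgeR). Cxcr4, which also pairs with Cd74, fell by 0.62 (adjusted p = 0.000719, edgeR) and rose by 0.33 (adjusted p = 0.0176, edgeR).

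The endosomal genes of GMPs gave 3 higher and 1 lower of 7 tested in Veh against NTB, 2 higher in BRQ against Veh and 2 higher in BRQ against NTB, beside the same 11.3%, 13.4% and 6.01% of all genes. Ifi30, the lysosomal thiol reductase that unfolds antigens, rose by 0.82 in BRQ against Veh (adjusted p = 0.0256, edgeR) and by 1.57 in BRQ against NTB (adjusted p = 0.0274, edgeR). Ctsl, a protease that trims the invariant chain in some cells, rose by 1.06 in Veh against NTB (adjusted p = 0.0264, edgeR) and by 1.00 in BRQ against NTB (adjusted p = 0.0472, edgeR). Ctsz and Ctsd rose by 0.39 (adjusted p = 0.00802, edgeR) and 0.36 (adjusted p = 0.0191, edgeR) in Veh against NTB. Ctsb fell by 0.45 in Veh against NTB (adjusted p = 0.00168, edgeR) and rose by 0.31 in BRQ against Veh (adjusted p = 0.00954, edgeR). Ifngr1, a chain of the interferon gamma receptor, fell by 0.33 in Veh against NTB (adjusted p = 0.0222, edgeR), and Nfyb, a subunit of the factor that binds CCAAT, fell by 0.39 in BRQ against Veh (adjusted p = 0.00499, edgeR). In B-like, macrophage-like and dendritic/monocyte cells 0 of 20, 19 and 19 of these genes were called in BRQ against NTB (edgeR), with 3, 2 and 0 at an unadjusted p under 0.05 and 0 by DESeq2 in each. Over all genes 0.746%, 0.130% and 0.431% were called.

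Among the genes whose levels over 14 cell classes were most like the mean of the 7 members were Clec4b1 (Pearson r = 0.943), Shtn1 (0.933), Ckb (0.932) and Pid1 (0.910), followed by Cdk14 (0.908), Cd22 (0.896), Irf5 (0.896), Cysltr1 (0.889) and Slc46a3 (0.881). They were ranked among 6232 genes outside the lists, on class means of log2(CPM + 10). All of these were highest in dendritic-like cells, and Clec4b1, a lectin receptor, stood at 67.5 CPM there, 26.7 in macrophage-like and 0.120 in stem-like cells. The classes share libraries and are not independent, so these values are descriptions.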

How the data were processed

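Gene and hashtag UMI counts per barcode were deposited by the authors as unnormalized matrices of 3 pools, made with Cell Ranger 6.0.0 on mm10 per the labels. Barcodes with under 15% mitochondrial UMIs and 500 to 7500 genes were kept. The study gives 500 and 7500 as transcripts; the values here read them as detected genes, which departs from that wording, and the reading as UMIs, whose upper limit lies near the median of 7445 to 7996.5 UMIs per barcode, is an alternative. Hashtags were called with HTODemux (Seurat 5.3.0, quantile 0.99). Cells were clustered without the members and other class II chains in scanpy 1.11.5 (2000 variable genes, 30 components, 20 neighbours, Leiden resolution 0.8), the rare lymphoid and dendritic clusters were clustered again, and clusters were named from marker lists. Scrublet marked 3.58 to 5.38% of barcodes per pool as likely doublets, which stayed in the main values; clusters with over 50% marked stayed unnamed. Ms4a3+ GMPs are cells above 3 on ln(1 + UMIs per 10000).

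Counts were summed per mouse and class and tested with edgeR 4.0.16 (TMM, filterByExpr, quasi-likelihood, no block, at least 10 cells and 2 mice per group), since a test over cells takes cells as replicates. SEs were derived from the F statistic and intervals from its degrees of freedom. On simulated counts the fit recovered 53.1%, 64.3% and 65.3% of changed genes in stem-like, monocyte-like and Ms4a3+ GMP cells in Veh against NTB (9893, 9533 and 10297 genes run), at mixed fold sizes. Unchanged genes gave 4, 4 and 13 false calls. The simulation gave all genes the same spread, so it does not cover genes whose UMIs lie in few cells. The pool marks a shared library per the labels, so the pool number pairs mice; deviations of mice of 1 pool correlated at -0.019 to 0.206 in GMPs, -0.0178 to 0.126 in monocyte-like, 0.00122 to 0.0904 in stem-like and -0.0671 to -0.0101 in B-like cells. Genes named are the 7 members, list genes past the threshold and the 10 genes most like the members, of which some results are not reported here. The members and lists were chosen with earlier results of these data known, and the sub-clustering, naming rules, macrophage-like class, dendritic/monocyte cluster and splits of stem-like cells were chosen after seeing the data. Alternatives were RLE factors, no filter, DESeq2 1.42.0, the replicate block, leaving out each mouse, hashtags by tag ratio, 500 to 7500 read as UMIs, no Scrublet-marked barcodes, resolution 1.6, 20 cells and other cell subsets. The lists hold 44 symbols, with March1 and March8 under both an older and a newer symbol; 40 symbols were found, these genes among them, and H2-Ea and H2-Ea-ps were not analysed here.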

Additional observations from a re-analysis of the deposited data

Results flagged for a closer look

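H2-DMa in BRQ against NTB mice went in opposite directions in 2 cell classes. On the scale of log2(CPM + 1), averaged over the 3 pools, the difference of BRQ from NTB was -0.27 in monocyte-like cells and 0.36 in Ms4a3+ GMPs, with all 3 pools in each direction. The difference between the classes was not tested, and neither class passed the edgeR test without a block. With the pool as a replicate block H2-DMa in monocyte-like cells passed (-0.41, adjusted p = 0.0143, edgeR), and so it did without the low-count filter (-0.36, adjusted p = 0.0393, edgeR). In Ms4a3+ GMPs the block gave 0.22 (adjusted p = 0.424, edgeR). With all cells of GMP-like clusters in place of the Ms4a3 limit, H2-DMa differed by -0.03 (adjusted p = 0.897, edgeR). The opposite direction thus depended on how GMPs were defined. The monocyte markers in Ms4a3+ GMPs were at 177 to 250 CPM in NTB and 245 to 284 in BRQ mice, and their part in this was not tested.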

How the results depend on the processing

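The number of called members depended on the setting in most classes. Settings also differed in the members tested and in the genes called over all, so these counts are not on 1 scale. In stem-like cells it was 0 for both comparisons with NTB under DESeq2, with 500 to 7500 read as UMIs and in cells without a Cd48 UMI, and 0 for BRQ against NTB by tag ratios. In monocyte-like cells it was 1 for BRQ against Veh and 2 for BRQ against NTB without the filter, and 1 for BRQ against NTB with the replicate block. In B-like cells it was 1 with DESeq2 and pro-B and pre-B cells only, and 0 by tag ratios, with 500 to 7500 UMIs and without Scrublet-marked barcodes. Without sub-clustering it was 0 with only H2-DMa tested, so Cd74 and H2-Aa had no test there. In Ms4a3+ GMPs Veh against NTB gave 4 of 6 tested without the filter, 2 of 3 with the block, and 0 of 3 with DESeq2 or GMP-like clusters. Over all genes 1327, 1693, 913 and 3024 were called in these 4 settings. BRQ against Veh gave 5 of 6 without the filter, 1 of 3 with DESeq2 or GMP-like clusters, and 1 of 5 with the Ms4a3 limit 2.5. Over all genes 1450, 947, 1525 and 1444 were called in these 4 settings. With 500 to 7500 UMIs 0 members passed the filter in Ms4a3+ GMPs, so the count of 0 there is no test. In Ms4a3+ cells of GMP-like clusters only H2-DMa was tested, with 0 called in Veh against NTB and 1 in BRQ against Veh. In macrophage-like cells 500 to 7500 UMIs gave 1, H2-Eb1 (-1.85, adjusted p = 0.0264, edgeR). H2-Aa in B-like cells turned to 0.15 without Scrublet-marked barcodes. DESeq2 gave no adjusted p for H2-Aa in B-like cells and, in Veh against NTB, for H2-Aa in stem-like cells and Cd74 in Ms4a3+ GMPs, so these are not lost calls. The cause of the other changes was not tested.

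Leaving out each mouse gave 0 to 1 called members in stem-like cells in both comparisons with NTB and 0 to 0 in BRQ against Veh. It gave 0 to 1 in monocyte-like cells in both comparisons with NTB and 0 to 0 in BRQ against Veh. In Ms4a3+ GMPs it gave 0 to 4 in Veh against NTB, 1 to 5 in BRQ against Veh and 0 to 0 in BRQ against NTB. B-like cells gave 1 to 3, and macrophage-like and dendritic/monocyte cells 0 to 0. With the block the called members were 1, 0 and 1 in stem-like, 0, 0 and 1 in monocyte-like, 2, 3 and 0 in Ms4a3+ GMP and 2 in B-like cells, and it changed the call of no other member than those given beside the results. Over all genes the block called 181, 14 and 223 in stem-like and 517, 837 and 484 in monocyte-like cells. It called 1693, 2105 and 1217 in Ms4a3+ GMPs and 28 in B-like cells. Of the fold changes of single members under settings other than leaving out a mouse, 327 stayed on their side of the threshold, and 25 of these, called neither before nor after, changed sign; 8 passed the threshold newly, 16 lost it in the same direction, and 1 called value turned, that of H2-Aa in B-like cells. Cells without a Cd48 UMI, the B-like class without its sub-cluster of many doublets, Ms4a3+ cells of GMP-like clusters and no sub-clustering were chosen after seeing the data. Conventional dendritic, plasmacytoid dendritic and mature B cells alone held too few cells per mouse for a test. Low counts limit Ciita, H2-Eb1 and H2-DMb1 in stem-like cells and Ms4a3+ GMPs, and Ciita and H2-Eb1 in monocyte-like cells, where they did not pass the filter.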
